A study of Homo sapiens with 6 samples.

Results

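The NRF2 system was followed through 10 of its genes in LN229 cells, an established human glioblastoma line, after treatment with UDCA (ursodeoxycholic acid), a hydrophilic bile acid given to patients with cholestasis. The 10 genes (of 33890 in the deposited table) are NFE2L2, which encodes NRF2, its relative NFE2L1, the adaptor KEAP1, the repressor BACH1, the small MAF genes MAFF, MAFG and MAFK, and the target genes HMOX1, NQO1 and OSGIN1. They were listed by name and chosen by their FPKM in the UDCA and control libraries (HMOX1 and OSGIN1 high with UDCA, NQO1 not), so their differences between the groups are given as a description with no test. Polyadenylated RNA was sequenced in 3 libraries of cells treated with 800 µM UDCA for 48 h and in 3 libraries of untreated control cells, both grown in serum-containing medium, per the labels' protocols. Separate cultures are not stated for the 3 libraries within a group, so any p-value below measures only the spread between these libraries, which may be technical. All cells come from 1 tumour line. Levels are the authors' deposited FPKM, reads per kilobase of exon scaled to the size of the library.

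NRF2 and NFE2L1 are basic leucine zipper activators of the cap'n'collar family. NRF2 binds antioxidant response elements as a heterodimer with a small MAF protein, and KEAP1 holds it in a ubiquitin ligase that sends it to the proteasome until electrophiles or oxidants modify KEAP1. BACH1 competes for the same elements, also with a small MAF partner, and leaves DNA when it binds heme. Because NRF2 is governed largely through protein stability, messenger RNA levels of these factors do not measure their activity.

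Promoter sequence was drawn from RefSeq (GRCh38.p14) for 8 of the 10 genes in 14 start-site windows; HMOX1 and MAFK had no entry. The 250 bases before each start were searched on both strands for TGACNNNGC, the core of the antioxidant response element, for TGANTCA, an AP-1 type element that BACH1 and MAF proteins can also bind, and for TGACGTCA, the cyclic AMP response element. Over 35116 promoters of the same length, 10.9% held the first, 6.57% the second and 1.65% the third, and none of the matches below overlapped another. Matches stood in OSGIN1, KEAP1, BACH1 and MAFF, 6 in all, and NFE2L2, NFE2L1, MAFG and NQO1 held none in these windows. The shares above are per window and motif, while the 8 genes had 14 windows, so a count of genes cannot be set beside them. The 130 bases before the start of the 4 genes with a match and of NQO1 are shown 5′ to 3′ on the gene's strand, with any matched motif in capitals.
OSGIN1: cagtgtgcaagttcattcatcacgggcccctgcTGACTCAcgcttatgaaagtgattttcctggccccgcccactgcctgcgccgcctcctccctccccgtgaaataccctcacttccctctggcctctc
NQO1: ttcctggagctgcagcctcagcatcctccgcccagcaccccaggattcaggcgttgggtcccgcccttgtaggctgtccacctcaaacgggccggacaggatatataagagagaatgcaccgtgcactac
KEAP1: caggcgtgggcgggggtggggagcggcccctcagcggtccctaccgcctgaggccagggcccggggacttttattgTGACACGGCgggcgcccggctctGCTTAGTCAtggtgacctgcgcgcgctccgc
BACH1: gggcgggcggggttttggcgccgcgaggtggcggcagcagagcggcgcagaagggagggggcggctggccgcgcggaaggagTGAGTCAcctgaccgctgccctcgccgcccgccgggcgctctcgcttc
MAFF: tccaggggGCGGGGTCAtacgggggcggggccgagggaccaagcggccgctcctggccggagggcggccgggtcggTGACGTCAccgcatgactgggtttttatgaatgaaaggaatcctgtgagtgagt

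The OSGIN1 stretch (chr16:83953110-83953239, plus strand) held 1 TGANTCA match from base -97 to base -91, counted from the start. This RefSeq start lies inside the annotated gene, which begins at 83948282. The starts of the other stretches shown also lie inside their annotated genes, and that of BACH1 begins at 29194071. The NQO1 stretch (chr16:69726561-69726690, minus strand) held none of the 3 motifs, nor did the rest of its 250 bases. The KEAP1 stretch (chr19:10502772-10502901, minus strand) held 2 antioxidant response element cores, from -54 to -46 on the gene's strand and from -31 to -23 on the other strand. The other RefSeq start of KEAP1 had no match. BACH1 (chr21:29298792-29298921, plus strand) held a TGANTCA match from -48 to -42 at 1 of its 3 starts. MAFF (chr22:38201864-38201993, plus strand) held an antioxidant response element core on the other strand from -122 to -114 and the cyclic AMP response element from -54 to -47. These are matches of letters. A variant of an element that differs at a fixed base of the searched motif, in OSGIN1 or elsewhere, would be missed. Sequence beyond the 250 bases, distal enhancers included, was not searched, so an element farther upstream of NQO1 would be missed. No binding was measured, and whether a match bears on the differences between genes was not tested.

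Total reads were 15988951 to 17045218 in the UDCA libraries and 16639832 to 17743022 in the control libraries. By limma-trend with Benjamini-Hochberg adjustment at 0.05, 80.8% of the 14380 genes tested were called, so a call by itself says little about any one gene. The median gene was 0.095 higher with UDCA on the log2(FPKM + 1) scale, and median-ratio scaling moved that median to -0.002. Markers of the line were not stable between the groups. SOX2 was at 2.48 to 2.66 FPKM with UDCA and 75.8 to 78.7 FPKM in control, S100B at 12.5 to 12.6 FPKM with UDCA and 275 to 295 FPKM in control, NES at 26.7 to 27.2 FPKM with UDCA and 143 to 152 FPKM in control, and VIM at 64.2 to 65.8 FPKM with UDCA and 165 to 169 FPKM in control. EGFR was at 9.06 to 9.33 FPKM with UDCA and 6.62 to 6.93 FPKM in control, CD44 at 42.9 to 44.7 FPKM with UDCA and 64.6 to 65.6 FPKM in control, and OLIG2 at 4.67 to 4.99 FPKM with UDCA and 4.25 to 5.18 FPKM in control. GFAP was under 1 FPKM in every library. The leukocyte gene PTPRC, the endothelial gene PECAM1 and the epithelial gene EPCAM were each at 0.186 FPKM or less in every library. The part of this broad shift in the results below was not tested. The labels do not say whether treated and control cells were cultured and harvested side by side, so an effect of UDCA and a difference in culture cannot be told apart.

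**Figure D1:**
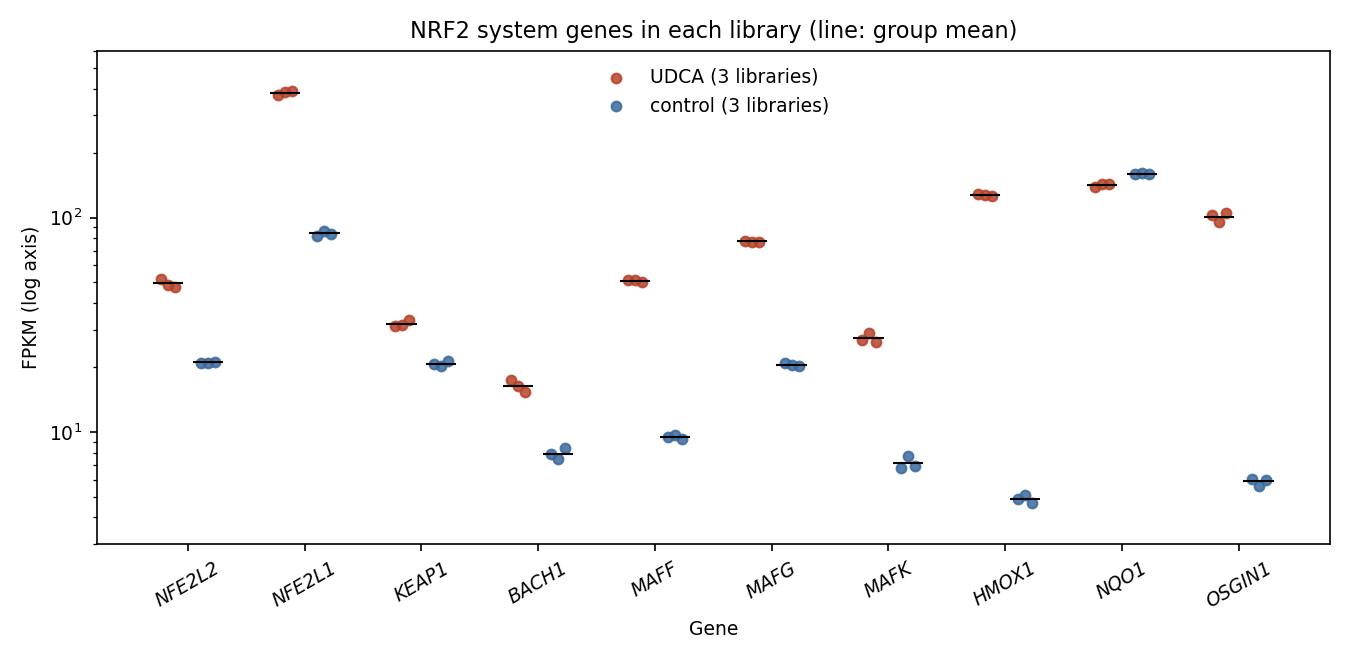
FPKM of the 10 genes on a log axis, with 3 UDCA libraries (left of each pair) and 3 control libraries as points and the group mean as a line. The 2 groups stand apart for every gene, with UDCA above control for 9 genes and below it for NQO1 (138 to 143 FPKM with UDCA, 159 to 161 FPKM in control).

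All 10 genes were above 1 FPKM in every library and were among the genes tested. In 9 of them every UDCA library was above every control library, and in NQO1 every UDCA library was below. Across all genes tested the groups did not overlap in 82.8%, with UDCA above in 46.1% and below in 36.7%, and the contrast that gave these counts also chose the members, so nothing is read from them. At least 2-fold higher on the log2(FPKM + 1) scale were 7 of the 10, where 12.3% of all genes tested were called and at least 2-fold higher, and 24.3% were called with such a change in either direction. The median log2 difference of the members was 1.83, beside 0.095 over all genes tested.

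HMOX1 (ENSG00000100292, chromosome 22, 35380361 to 35394214, plus strand, GRCh38) encodes heme oxygenase 1, the inducible enzyme that opens heme to biliverdin, iron and carbon monoxide, and it is a classical gene repressed by BACH1. It stood at 129, 127 and 126 FPKM in UDCA libraries 1 to 3, against 4.85, 5.08 and 4.64 FPKM in control libraries 1 to 3. The UDCA values lay within a few per cent of each other and far above all control values. The ratio of means was 26.2, with 127 ± 1.62 FPKM with UDCA and 4.85 ± 0.218 FPKM in control (SD, n = 3 each), resting on 15299 reads with UDCA and 602 in control. Its log2 difference of 4.45 was the 13th highest of the 14380 genes tested. By level the gene moved across the table: its mean was at the 98.6th percentile of tested genes with UDCA and at the 46.0th in control. No exon base of HMOX1 lies in another annotated gene, so its value is free of that uncertainty.

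OSGIN1 (ENSG00000140961, chromosome 16, 83948282 to 83966332, plus strand) encodes an oxidative stress-induced growth inhibitor and is a recognised NRF2 target. Its FPKM was 103, 95.1 and 105 in the UDCA libraries and 6.04, 5.61 and 5.99 in the control libraries. Every UDCA value exceeded every control value, and the second UDCA library was the lowest of its group. The means were 101 ± 5.18 FPKM with UDCA and 5.88 ± 0.237 FPKM in control (SD, n = 3 each), a ratio of 17.2 and a log2 difference of 3.89. Within a library HMOX1 and OSGIN1 stayed close to each other: HMOX1 was 1.25, 1.34 and 1.20 times OSGIN1 with UDCA and 0.802, 0.905 and 0.774 times OSGIN1 in control. Exons of an overlapping noncoding gene on the same strand, itself at 0.461 FPKM or less in every library, cover 13.9% of the exon bases of OSGIN1.

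NQO1 (ENSG00000181019, chromosome 16, 69706996 to 69726951, minus strand) encodes NAD(P)H quinone dehydrogenase 1, which reduces quinones by 2 electrons and is widely used as a readout of NRF2. The UDCA libraries gave 138, 143 and 143 FPKM and the control libraries 159, 161 and 160 FPKM. The groups did not overlap, with UDCA the lower. The mean with UDCA, 141 ± 2.76 FPKM, was 0.884 times the control mean of 160.0 ± 0.959 FPKM (SD, n = 3 each), and the log2 difference of -0.18 became -0.27 once the shift of the median gene was taken off. It remained below 0 under all alternatives of scaling, pseudocount, filter and test, and without each library, from -0.29 to -0.15. NQO1 was already among the most abundant genes without UDCA, at the 98.7th percentile with UDCA and the 98.9th in control. Exons of a gene on the opposite strand, not analysed here, cover 17.7% of its exon bases.

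Within each library, HMOX1 and OSGIN1 came close to NQO1 only under UDCA. HMOX1 was 0.933, 0.890 and 0.878 times NQO1 in the UDCA libraries and 0.0304, 0.0315 and 0.0291 times NQO1 in the control libraries. OSGIN1 over NQO1 was 0.715 ± 0.0427 with UDCA and 0.0368 ± 0.00170 in control (SD, n = 3 each). In control the 3 targets spanned the whole range of the 10 genes, with NQO1 the highest and HMOX1 the lowest. With UDCA they came next in rank after NFE2L1, far below it in level, and the 3 ranges did not touch.

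**Figure D2:**
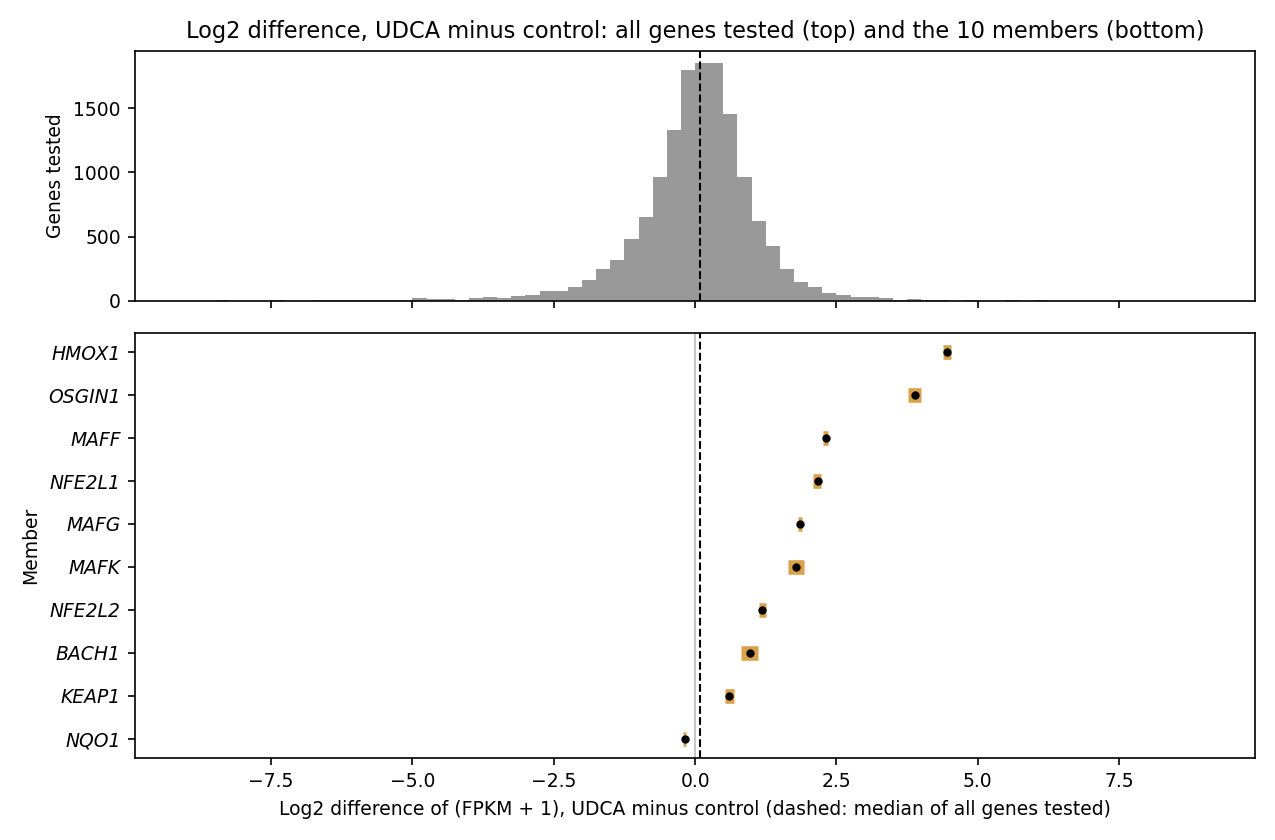
Log2 difference of (FPKM + 1), UDCA minus control, for all 14380 genes tested as a histogram (top) and for the 10 genes (bottom), where points are differences of group means and bars span the 9 pairs of a UDCA and a control library. HMOX1 at 4.45 and OSGIN1 at 3.89 lie in the far right tail, and NQO1 at -0.18 lies left of the dashed median of 0.095.

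NFE2L2 (ENSG00000116044, chromosome 2, 177227595 to 177392697, minus strand), the gene of NRF2, was at 51.8, 48.6 and 47.5 FPKM with UDCA and at 21.1, 21.1 and 21.3 FPKM in control. The groups were well apart, with a wider spread among the treated libraries. The mean of 49.3 ± 2.26 FPKM with UDCA was 2.33 times the control mean of 21.1 ± 0.106 FPKM (SD, n = 3 each). Of its annotated exon bases 20.9% are shared with other genes. AGPS, the only one of them above 1 FPKM, lies on the opposite strand and moved the other way, at 7.56 to 7.78 FPKM with UDCA and 9.93 to 10.7 FPKM in control.

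NFE2L1 (ENSG00000082641, chromosome 17, 48048329 to 48061487, plus strand) encodes NRF1, a factor held in the endoplasmic reticulum membrane that is known for the induction of proteasome genes when the proteasome is impaired. It was the most abundant of the activators, at 374, 385 and 388 FPKM in the UDCA libraries and 82.2, 87.0 and 83.9 FPKM in the control libraries. The means, 382 ± 7.11 FPKM with UDCA and 84.4 ± 2.43 FPKM in control (SD, n = 3 each), gave a ratio of 4.53. With UDCA this was the highest level of the 10 genes, at the 99.8th percentile of genes tested. NFE2L1 exceeded NFE2L2 by 7.22, 7.93 and 8.16 times with UDCA and by 3.90, 4.13 and 3.95 times in control, with all 3 UDCA ratios above all 3 control ratios.

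KEAP1 (ENSG00000079999, chromosome 19, 10486120 to 10503741, minus strand) had the smallest positive difference of the 10 genes. Its FPKM was 31.2, 31.5 and 33.4 with UDCA and 20.7, 20.4 and 21.3 in control. The groups did not overlap, and the means of 32.0 ± 1.18 FPKM with UDCA and 20.8 ± 0.490 FPKM in control (SD, n = 3 each) stood in a ratio of 1.54. In control KEAP1 overlapped both NFE2L2 and MAFG between 20.3 and 21.3 FPKM, while every NFE2L2 value lay above every MAFG value. With UDCA the order of that pair was the reverse: MAFG was above NFE2L2 and NFE2L2 above KEAP1, with no overlap. NFE2L2 over KEAP1 was 1.66, 1.54 and 1.42 with UDCA against 1.02, 1.03 and 0.996 in control.

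BACH1 (ENSG00000156273, chromosome 21, 29194071 to 29630751, plus strand), the heme-sensing repressor, was the least abundant of the 10 genes with UDCA. It was at 17.4, 16.3 and 15.4 FPKM in the UDCA libraries and 7.88, 7.46 and 8.38 FPKM in the control libraries. Its mean was higher with UDCA, at 16.4 ± 1.01 FPKM, than in control, at 7.91 ± 0.461 FPKM (SD, n = 3 each), a ratio of 2.07. The ratio of BACH1 to NFE2L2 was 0.336, 0.336 and 0.324 with UDCA and 0.374, 0.354 and 0.394 in control, so all UDCA ratios lay below all control ratios. Only 4.50% of the exon bases of BACH1 are shared with other genes.

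The small MAF proteins lack an activation domain of their own and dimerise with NRF2, NFE2L1 or BACH1, or with each other. MAFF (ENSG00000185022, chromosome 22, 38200767 to 38216511, plus strand) gave 51.0, 51.3 and 50.3 FPKM with UDCA and 9.46, 9.70 and 9.28 FPKM in control. This was the largest ratio of the trio, 5.36, between means of 50.9 ± 0.502 FPKM with UDCA and 9.48 ± 0.208 FPKM in control (SD, n = 3 each). MAFG (ENSG00000197063, chromosome 17, 81918270 to 81927714, minus strand) gave 78.1, 77.3 and 76.9 FPKM with UDCA and 21.0, 20.4 and 20.3 FPKM in control. Its ratio of means was 3.76, and it was the most abundant small MAF gene in all 6 libraries. MAFK (ENSG00000198517, chromosome 7, 1530714 to 1543043, plus strand) gave 26.8, 28.9 and 26.2 FPKM with UDCA and 6.82, 7.73 and 6.95 FPKM in control. The ratio of means was 3.81, and MAFK was the least abundant of the trio in each library. A gene on the opposite strand covers 18.1% of its exon bases, but that gene, TMEM184A, was at 0.317 FPKM or less throughout.

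Summed over the trio, small MAF transcripts came to 156 ± 2.04 FPKM with UDCA and 37.2 ± 0.661 FPKM in control (SD, n = 3 each), 4.18 times as much. MAFF made up 32.7% ± 0.110 of this sum with UDCA and 25.5% ± 0.131 in control, MAFG 49.8% ± 0.609 with UDCA and 55.3% ± 1.21 in control, and MAFK 17.5% ± 0.711 with UDCA and 19.3% ± 1.08 in control (SD, n = 3 each). The MAFF share was higher in every UDCA library than in any control library. Set against NFE2L2 alone, the small MAF sum was 3.01, 3.24 and 3.23 times as large with UDCA and 1.77, 1.80 and 1.72 times in control. Set against NFE2L2, NFE2L1 and BACH1 together, it was 0.352, 0.350 and 0.341 with UDCA and 0.335, 0.328 and 0.322 in control. Summed, the transcripts of these partners, most of them NFE2L1, were thus higher with UDCA by a factor near that of the small MAF sum. The ratios of means of NFE2L2 (2.33) and BACH1 (2.07) alone were smaller than the 4.18 of that sum.

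**Figure D3:**
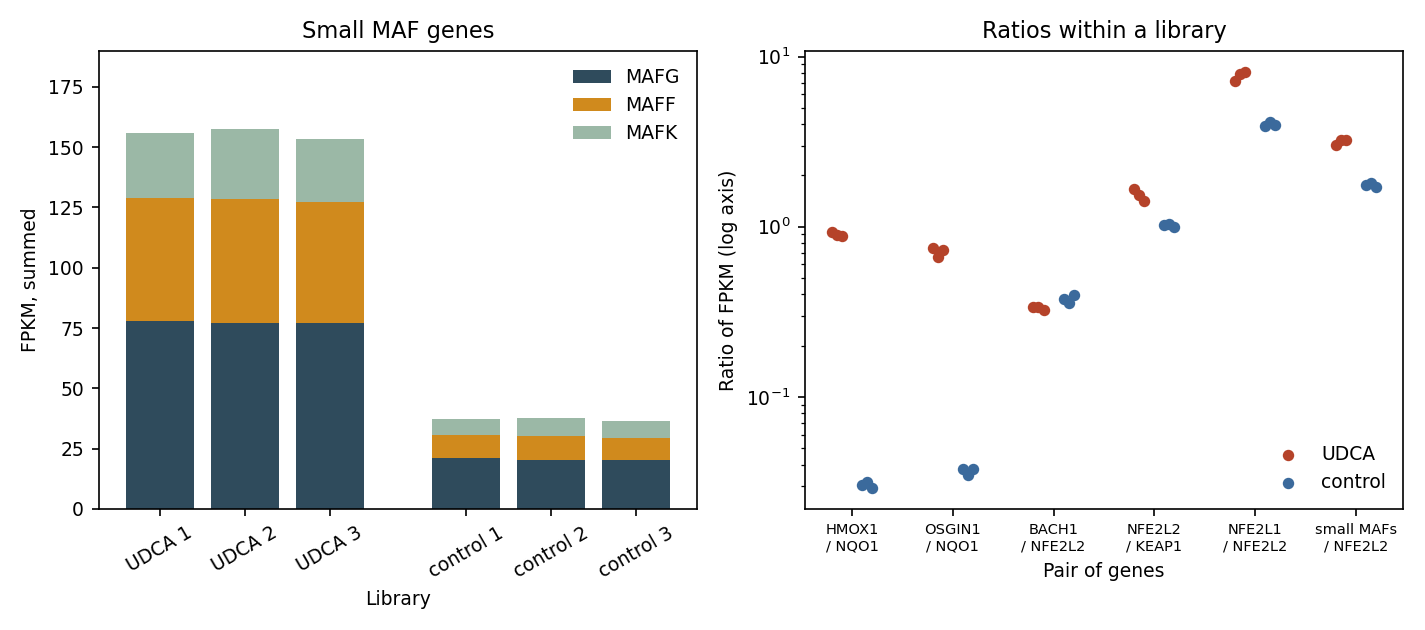
Left, FPKM of MAFG, MAFF and MAFK stacked for each library; right, ratios of FPKM between pairs of genes within each library on a log axis, with UDCA left of control. The stacks reach 153 to 157 FPKM with UDCA and 36.5 to 37.9 FPKM in control, and HMOX1 over NQO1 shows the widest gap (0.900 ± 0.0290 with UDCA, 0.0303 ± 0.00121 in control, SD, n = 3 each).

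Ordered by level, the UDCA libraries ran from NFE2L1 through NQO1, HMOX1, OSGIN1, MAFG, MAFF, NFE2L2, KEAP1 and MAFK to BACH1, and only MAFF and NFE2L2 had ranges that met. The control libraries ran from NQO1 through NFE2L1, NFE2L2, KEAP1, MAFG, MAFF, BACH1, MAFK and OSGIN1 to HMOX1, where NFE2L2 met KEAP1, KEAP1 met MAFG, and BACH1 met MAFK. Replicates were tight in both groups, with a coefficient of variation of 0.773% (MAFG) to 6.15% (BACH1) with UDCA and 0.503% (NFE2L2) to 6.87% (MAFK) in control. As these are bulk libraries, fewer cells that express a gene and less RNA per cell cannot be told apart.

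The genes whose levels over the 6 libraries lay nearest to those of HMOX1, by Euclidean distance on the log2(FPKM + 1) scale, were STC2 (distance 0.30), DDIT3 (0.68), OSGIN1 (0.72), BEX2 (1.16) and MIR616 (1.18). STC2, a secreted glycoprotein gene, was at 115, 115 and 118 FPKM with UDCA and 4.48, 4.46 and 4.70 FPKM in control, close to HMOX1 in every library. DDIT3 encodes the stress factor CHOP, and MIR616 is a microRNA gene within it, with 549 reads with UDCA and 30 in control. The entries of DDIT3 and MIR616 may share reads and are not taken as independent. OSGIN1 being among the 5 restates the values that chose both genes.

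The rest of the pathway was taken from 10 lists of 87 other genes, of which 85 were in the table and 77 were tested; ALDH3A1 and UGT1A6 were not analysed here. Of the 77, 54 rose with UDCA, 17 fell and 6 did not pass (limma-trend, adjusted p under 0.05 over all genes tested). That is 70.1% higher and 22.1% lower, beside 45.1% higher and 35.7% lower among all genes tested, and the median log2 change was 0.62 beside 0.095. With median-ratio scaling 52 pathway genes were called higher and 21 lower, beside 5793 higher and 5827 lower of all genes tested, where the main scaling gave 6491 and 5133. With the main scaling, 30 (39.0%) were called at least 2-fold higher on the log2(FPKM + 1) scale and 3 (3.90%) at least 2-fold lower. Among all genes tested these shares were 12.3% and 12.0%. AKR1B10, SRXN1 and MGST1 reached the minimum level only in the UDCA libraries and so had to be higher to be tested. They are counted in the 54 and in the 30. The lists were chosen with earlier results of these data known, so that choice may have shaped the shares above. No test of the lists was made, and every gene said below to have risen or fallen passed the test for single genes.

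**Figure D4:**
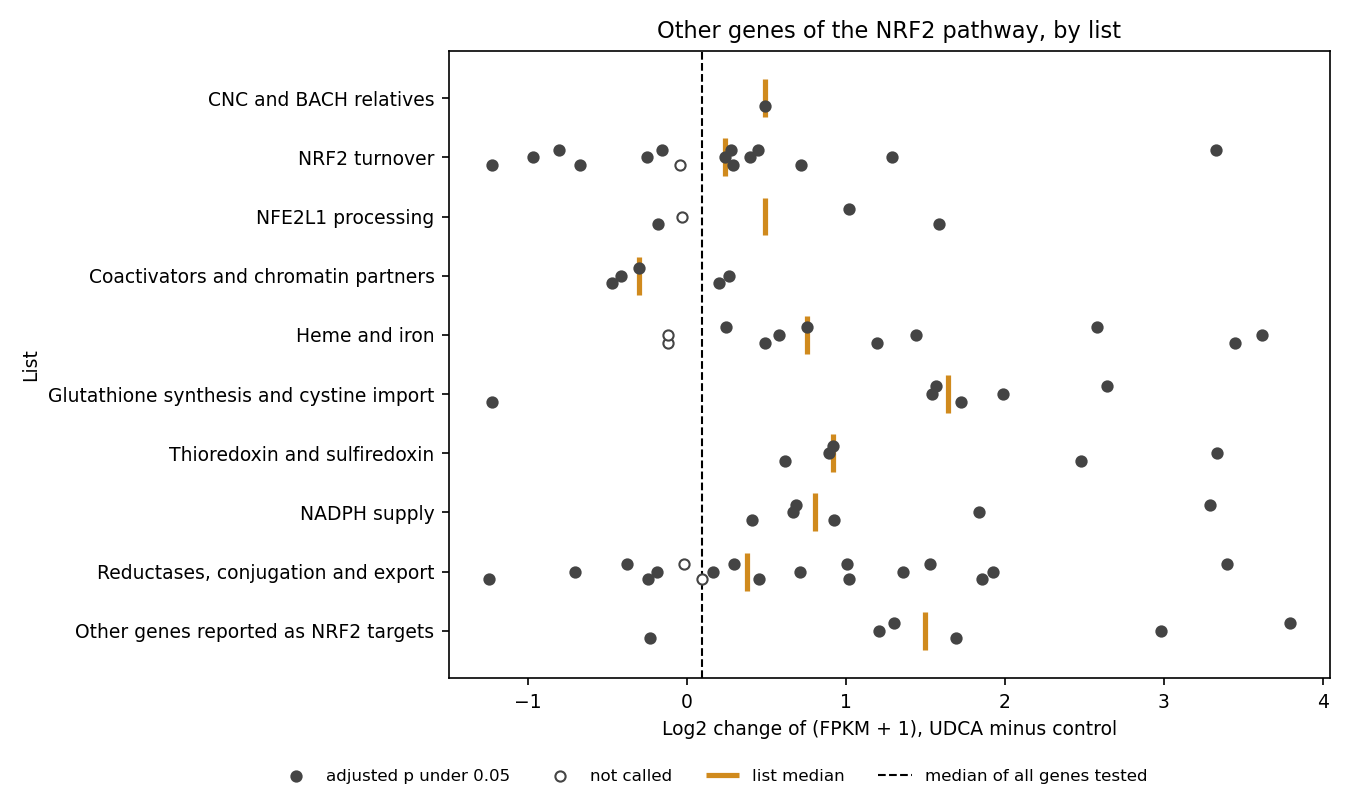
Log2 change of (FPKM + 1), UDCA minus control, of the 77 tested pathway genes by list, with filled points for adjusted p under 0.05, open points for genes not called, and an orange bar for the list median. List medians run from -0.30 for coactivators to 1.65 for glutathione synthesis, with the dashed line at the median of all genes tested (0.095).

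Among close relatives of the factors, NFE2L3 rose 1.43-fold, at 26.6 ± 0.895 FPKM with UDCA and 18.6 ± 0.533 FPKM in control (SD, n = 3 each, limma adjusted p = 1.06e-05). NFE2, the blood-lineage member, had 3 reads in all UDCA libraries and 50 in all control libraries, and BACH2 had 107 reads with UDCA and 259 in control; both were under the minimum level and were not tested.

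Of 15 turnover genes of NRF2, 8 rose and 6 fell; the 53.3% higher is near the 45.1% of all genes tested, and 35.7% of those fell. SQSTM1, whose product p62 binds KEAP1 and carries it to autophagy, rose most, to 434 ± 12.6 FPKM with UDCA against 42.3 ± 1.16 FPKM in control (SD, n = 3 each), 10.3-fold (limma adjusted p = 7.98e-10). Exons of MGAT4B and MRNIP, both on the opposite strand, cover a part of its exon bases. SYVN1, the endoplasmic reticulum ubiquitin ligase HRD1, rose 2.53-fold to 44.9 ± 0.168 FPKM with UDCA. CUL3, the scaffold that joins KEAP1 to the ubiquitin machinery, rose 1.21-fold, to 7.74 ± 0.385 FPKM with UDCA against 6.38 ± 0.109 FPKM in control (limma adjusted p = 0.00162). RBX1, the RING subunit of the same ligase, fell to 9.53, 11.8 and 11.6 FPKM with UDCA against 22.3, 23.3 and 21.1 FPKM in control, and GSK3B, a kinase that marks NRF2 for another ligase, fell to 6.18 ± 0.228 FPKM with UDCA against 15.7 ± 0.139 FPKM in control. Components of the KEAP1 ligase therefore did not share a direction.

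Of the genes that process NFE2L1, SEL1L and NGLY1 rose. SEL1L, the partner of HRD1 in endoplasmic reticulum-associated degradation, rose 3.10-fold to 61.1 ± 0.995 FPKM with UDCA, and NGLY1, the cytosolic N-glycanase, rose 2.43-fold to 6.13 ± 0.549 FPKM. VCP, the extraction ATPase p97, fell, at 85.3 ± 2.78 FPKM with UDCA and 96.9 ± 2.25 FPKM in control (limma adjusted p = 0.00111). DDI2, the protease that cuts NFE2L1, did not pass, at 3.85 ± 0.158 FPKM with UDCA and 3.96 ± 0.428 FPKM in control (SD, n = 3 each, limma adjusted p = 0.734). Coactivators and chromatin partners moved little: CREBBP rose 1.17-fold and MED16 rose 1.22-fold, while EP300 (0.801 times control), CHD6 (0.700) and SMARCA4 (0.732) fell.

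Genes of heme and iron had 9 of 11 tested members higher (81.8%) and none lower, beside 45.1% higher and 35.7% lower among all genes tested. FTL and FTH1, the ferritin chains that store iron, were the largest in level. FTL was at 10217, 10344 and 10443 FPKM in the UDCA libraries and 952, 947 and 940 FPKM in the control libraries, a ratio of means of 10.9. FTH1 rose 12.3-fold to 1912 ± 69.5 FPKM with UDCA against 155 ± 9.11 FPKM in control; 62.4% of its exon bases lie in exons of BEST1 on the opposite strand, and ferritin genes share sequence with many processed pseudogenes, so both levels are uncertain. Of the biliverdin reductase genes, BLVRB rose 6.30-fold to 97.6 ± 0.592 FPKM and BLVRA rose 1.73-fold. SLC48A1, a heme transporter, rose 3.06-fold. The constitutive heme oxygenase gene HMOX2, named after its value was seen, rose 1.57-fold to 10.6 ± 0.259 FPKM with UDCA against 6.77 ± 0.373 FPKM in control, beside the 26.2-fold ratio of HMOX1. FECH and FLVCR1 did not pass, at 6.83 ± 0.585 and 4.56 ± 0.200 FPKM with UDCA and 7.49 ± 0.221 and 5.04 ± 0.188 FPKM in control (limma adjusted p = 0.111 and 0.0540). With median-ratio scaling or quantile normalization both were called lower.

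Glutathione synthesis had 5 of 6 tested members higher and 1 lower, beside 45.1% higher and 35.7% lower among all genes tested. GCLM, the modifier subunit of the rate-limiting ligase, was at 61.9, 64.2 and 50.0 FPKM with UDCA and 8.37, 8.27 and 8.97 FPKM in control. UDCA library 3 was the lowest of its group and still far above control, and the ratio of means was 6.88 (limma adjusted p = 2.88e-07). The catalytic subunit gene GCLC rose 3.43-fold to 14.6 ± 0.564 FPKM, GSR, glutathione reductase, rose 4.11-fold to 82.5 ± 1.99 FPKM, and the 2 chains of the cystine importer, SLC7A11 and SLC3A2, rose 3.04-fold and 3.33-fold. GSS, glutathione synthetase, went the other way, at 7.98 ± 0.105 FPKM with UDCA and 19.9 ± 0.188 FPKM in control (SD, n = 3 each, limma adjusted p = 3.37e-08).

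All 5 genes of the thioredoxin list rose, beside 45.1% called higher among all genes tested. SRXN1 reached the minimum level only in the UDCA libraries and so had to be higher to be tested. TXNRD1, thioredoxin reductase 1, was at 445, 442 and 452 FPKM with UDCA and 42.4, 43.0 and 44.7 FPKM in control, a ratio of means of 10.3 (limma adjusted p = 3.78e-10). TXN rose 1.87-fold, PRDX1 1.54-fold and PRDX6 1.90-fold. SRXN1, sulfiredoxin, was at 7.12 ± 0.981 FPKM with UDCA and 0.451 ± 0.127 FPKM in control, and a gene on the same strand shares 85.0% of its exon bases, so its level is uncertain.

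The 6 NADPH supply genes rose as well, by unequal factors, beside 45.1% called higher among all genes tested. IDH1, the cytosolic isocitrate dehydrogenase, rose 10.2-fold to 191 ± 1.46 FPKM and ME1, malic enzyme 1, 3.82-fold to 40.7, 41.9 and 38.9 FPKM. PGD and TKT, enzymes of the pentose phosphate pathway, rose 1.92-fold and 1.62-fold, PGD to 86.8 ± 1.97 FPKM with UDCA against 45.2 ± 1.48 FPKM in control (SD, n = 3 each, limma adjusted p = 2.2e-07).

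Reductases, conjugating enzymes and exporters had 11 of 18 tested members higher (61.1%) and 5 lower (27.8%). Among all genes tested 45.1% were higher and 35.7% lower. AKR1B10 and MGST1, counted in the 11, had to be higher to be tested. ABCC3, an organic anion and bile salt exporter, rose 14.3-fold, AKR1B1, aldose reductase, rose 3.88-fold to 143 ± 3.03 FPKM, and AKR1B10 rose to 3.41, 4.44 and 3.24 FPKM with UDCA against 0.103, 0.367 and 0.420 FPKM in control. NQO2, the paralog of NQO1 that uses dihydronicotinamide riboside, was at 6.50, 6.19 and 6.88 FPKM with UDCA and 1.61, 1.67 and 1.53 FPKM in control. It rose 4.06-fold (limma adjusted p = 3.3e-07) and stayed far under the level of NQO1. The 5 that fell, named after their values were seen, were AKR1C3, AKR1C2, GSTM4, GSTP1 and CBR1. AKR1C3 was at 4.95 ± 0.303 FPKM with UDCA and 13.1 ± 0.325 FPKM in control, and its neighbour AKR1C1, often used beside NQO1 as a human NRF2 target, did not pass at 18.3 ± 0.624 FPKM with UDCA and 18.5 ± 0.287 FPKM in control (SD, n = 3 each, limma adjusted p = 0.627). With median-ratio scaling AKR1C1 was called lower (limma adjusted p = 0.00863), and CBR1 lost its call under 5 of the alternatives. The AKR1C genes are related copies, not all equally alike, whose reads counting can split, so their single values are uncertain.

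Among other genes reported as NRF2 targets, 5 of 6 tested rose, beside 45.1% called higher among all genes tested. TRIM16L rose 17.1-fold to 67.5 ± 0.867 FPKM and TRIM16 rose 11.1-fold to 23.9 ± 0.808 FPKM; the pair share sequence, so the split between them is uncertain. ABHD4 rose 3.66-fold and PIR, which encodes the iron-binding protein pirin, rose 2.61-fold to 27.0 ± 0.939 FPKM with UDCA against 10.4 ± 0.258 FPKM in control. SLC6A6, the taurine transporter gene, was the exception that fell, at 30.9 ± 0.653 FPKM with UDCA and 36.5 ± 0.905 FPKM in control (SD, n = 3 each, limma adjusted p = 0.000193). NQO1, AKR1C1, AKR1C3 and SLC6A6 were not higher with UDCA, beside GCLM, TXNRD1, TRIM16L and HMOX1 at 6.88 to 26.2 times their control level. These are examples picked with values known, and others lay between them, such as PRDX1 at 1.54 and TXN at 1.87 times control.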

How the data were processed

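The deposited table holds 1 value per gene and library for 33890 genes, and the unit was inferred from the values. The authors deposited FPKM, since multiplying a value by its gene's merged exon length (GENCODE 29, Ensembl 94) gave a whole multiple of 1 step per library for 100% of values, within 0.01 reads. GRCh38, HISAT2 and Bowtie2 2.0.6 are named in the submitters' processing notes, which assign no roles. Which counter was run, and with which strand setting, is not given in the sources used here, so reads of overlapping genes cannot be told apart. The recovered reads summed to 15988951, 17045218 and 16975081 in the UDCA libraries and to 16639832, 17203507 and 17743022 in the control libraries.

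Symbols and positions come from GENCODE 29, whose positions equal those in the table for 33873 genes; the others are mitochondrial genes, which the table places on a chromosome of another name. The test, on the 14380 genes that reached 1 FPKM in 3 or more of the 6 libraries, was limma-trend 3.58.1 in R 4.3.3 on log2(FPKM + 1), with group as the only term, 2-sided, and Benjamini-Hochberg adjustment over all of them at 0.05. The design asked for no count model, since FPKM are not counts. On simulated reads for UDCA against control the test called 28 of 67 at 1.5-fold, 63 of 67 at 2-fold and 65 of 66 at 4-fold, with 19 false calls among 13709 genes. The simulation changed only these few genes and gave every gene the same dispersion, not fitted to these libraries. Its recovery therefore need not hold for the real data. Tables used pandas 2.3.3 and figures matplotlib 3.10.9, under Python 3.11.15.

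The members, the 10 pathway lists and the tests were chosen with earlier results of these data known. Named genes are the members, the pathway genes fixed by name, every gene of a list of 5 or fewer, up to 4 called genes per list with the largest log2 change, and the 5 genes nearest to HMOX1. BLVRA, HMOX2, FECH, FLVCR1, GSS, MGST1, SLC6A6, CBR1, GSTM4, GSTP1, AKR1C1, AKR1C2 and AKR1C3 fall outside that rule or were named for a small count, and were chosen after their values were seen. For 1 gene that the rule names, values are not reported here. Alternatives were median-ratio scaling, quantile normalization, a pseudocount of 0.1, no filter, a replicate block, limma's voom on recovered reads, and each library left out in turn. Chi-square over degrees of freedom between replicates was 1.69 to 2.87 with UDCA and 1.69 to 1.98 in control, above sampling noise, so no library was taken as a second deposit of another. This does not show that they came from separate cultures. Protein sequences were not used here.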

Additional observations from a re-analysis of the deposited data

How the results depend on the processing

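Of the 14380 genes tested, 11624 were called, and between 11218 and 11381 were called without 1 library. The count of pathway genes was 54 higher and 17 lower, with 53 to 55 higher and 16 to 17 lower without 1 library, 52 higher and 21 lower with median-ratio scaling, and 53 higher and 20 lower with quantile normalization. All 10 members kept the sign of their log2 difference under all 12 alternatives; HMOX1 ranged from 4.35 to 4.71, OSGIN1 from 3.78 to 4.10 and NQO1 from -0.29 to -0.15. In the heme and iron list the count lower was 0, against 2 with median-ratio scaling, 2 with quantile normalization and 1 with voom on recovered reads. Of the 77 pathway genes, 69 kept their call throughout. CBR1 lost its call without control replicate 1, UDCA replicate 1 or UDCA replicate 3, with no filter and with voom (adjusted p = 0.0505 to 0.0856), and UGDH lost it under 6 alternatives (0.0535 to 0.327).

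Same-numbered libraries of the 2 groups did not deviate together (correlations of deviations 0.014, -0.001 and 0.007), and no library correlated best with its own number. Such values cannot show whether same-numbered libraries were cultured or prepared together. A replicate block gave 11503 calls, with 54 pathway genes higher and 17 lower. Depth limits low genes: the floor of 3 reads equals 0.169 to 0.188 FPKM at 1 kb of exon, covering counting error only.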
